A study of Mus musculus with 12 samples.

Results

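The 42 genes described here are replication and mitosis genes, chosen by name for what their products do in the cell cycle. They were chosen with earlier results of these data known, so shares over all genes describe them and do not test them. A list of 19 holds S phase genes, whose products copy DNA or prepare its copying. A list of 23 holds G2 and M phase genes, whose products mostly act in chromosome condensation, spindle assembly and division. It also includes the transcription factors Foxm1 and Mybl2 and cyclin A2 of S and G2 (Ccna2). All 42 were found among the 14259 genes of the counts, and all 42 passed the filter on low counts, as did 13782 genes in all. They lie on 17 chromosomes, with 9 on chromosome 2. The libraries are bulk RNA-seq of cells sorted as regulatory T cells (Treg cells) from mouse bone marrow (BM) on day 14, with 4 groups of 3 libraries. The groups were compared to ask what leukemia, the interleukin-33 receptor ST2 (gene Il1rl1) and the transcription factor Tbet (gene Tbx21) change in marrow Treg cells.

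All mice were of the C57BL/6 strain and had received a transplant with Treg cells and conventional T cells after irradiation. The no tumor WT group received WT Treg cells and no leukemic cells. The tumor WT, tumor ST2-KO and tumor Tbet-KO groups received MLL-AF9 leukemic cells, a mouse model of acute myeloid leukemia that carries a fused MLL gene and eGFP, with Treg cells of the named genotype. WT and ST2-KO Treg cells came from Foxp3 eGFP reporter mice and were sorted as CD4+CD25+eGFP+ cells, whereas Tbet-KO Treg cells were sorted as CD4+CD25+CD127- cells. The gate and the genotype therefore cannot be told apart in the Tbet-KO group, and the leukemic cells carry the same fluorophore as the reporter. Ages of the sampled mice were not given in the labels, and neither labels nor methods say whether the 3 libraries of a group came from 3 mice, so the p-values measure the spread between libraries, which may be technical.

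Cells that divide pass from G1 into S phase, when E2F factors released from the RB protein switch on genes for replication, and then into G2 and mitosis, when FOXM1 and B-MYB bound to the MuvB complex switch on genes for division. In G0, MuvB forms the DREAM complex with E2F4 and the RB relatives and holds the same genes down through short promoter elements, the cell cycle genes homology region (CHR) and E2F sites, with CCAAT boxes bound by NF-Y nearby in G2 and M genes. Treg cells of the marrow and other tissues divide more than resting conventional T cells. The marrow also holds rapidly dividing erythroblasts, granulocyte precursors and pre-B cells.

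Promoter windows were read for 34 of the 42 genes from RefSeq (build GRCm38.p6, 250 bases before to 50 after a listed start). Of these, 4 are shown that carry the elements named above, next to genes described below. They are the 160 bases before the start, on the strand of the gene, and capitals mark the CHR (TTTGAA or TTTAAA), the CCAAT box (CCAAT, or ATTGG on the other strand) and the E2F site (TTTGGCGC, TTTCCCGC, TTTCGCGC or TTTGCCGC, both strands).
Cdk1 (G2 and M, chr10:69352913-69353072, minus strand): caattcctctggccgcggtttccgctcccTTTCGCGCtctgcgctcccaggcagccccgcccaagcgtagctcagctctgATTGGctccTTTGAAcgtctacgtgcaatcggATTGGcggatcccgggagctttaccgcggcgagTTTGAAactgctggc
Ccnb1 (G2 and M, chr13:100786487-100786646, minus strand): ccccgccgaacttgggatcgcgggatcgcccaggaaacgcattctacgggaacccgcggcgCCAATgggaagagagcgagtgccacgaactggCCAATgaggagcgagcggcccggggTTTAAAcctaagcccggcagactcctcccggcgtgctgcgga
Plk1 (G2 and M, chr7:122159275-122159434, plus strand): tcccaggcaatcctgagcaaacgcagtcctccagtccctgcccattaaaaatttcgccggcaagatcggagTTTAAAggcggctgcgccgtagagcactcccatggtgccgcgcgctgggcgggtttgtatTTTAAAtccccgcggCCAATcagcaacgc
Mcm6 (S phase, chr1:128359706-128359865, minus strand): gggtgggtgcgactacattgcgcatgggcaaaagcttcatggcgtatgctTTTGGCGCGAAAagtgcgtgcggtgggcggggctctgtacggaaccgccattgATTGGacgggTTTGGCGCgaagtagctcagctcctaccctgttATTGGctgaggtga
In Cdk1, the mitotic kinase, a TTTGAA starts 15 bases before the start, another lies 71 bases before it, and an E2F site stands 131 bases before it. Ccnb1, which encodes cyclin B1, has TTTAAA 42 bases before the start behind a pair of CCAAT boxes at 99 and 67. Mcm6, a subunit of the replicative helicase, has no CHR in its window but holds E2F sites at 110, 106 and 47, of which the first and the second overlap.

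Over whole 300-base windows, a CHR was found in 15 of 18 G2 and M genes with a window (83.3%), in 6 of 16 S phase genes (37.5%) and in 19.4% of the 10325 tested genes with one. CCAAT boxes were found in 83.3%, 62.5% and 38.5%, and E2F sites in 5.56%, 37.5% and 3.99%, in the same order. These are matches of letters only. The windows of E2f1, Cdc6, Aurka and Mybl2 lie wholly inside the span of the gene, so the bases before its outermost start were not read. In these windows E2f1 and Mybl2 had no match to any of the elements. Names alone are given for the genes with no window: Ccna2, Aurkb, Kif20a, Tpx2, Mcm4, Gins2, Ccne2 and Foxm1.

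Library totals ran from 13272943 to 18042521 counts, and the 42 genes took 0.757% to 1.24% of them. Among the 12 T cell markers and the 6 Treg markers (Foxp3, Il2ra and others) none was at 0 in any group, but markers of other marrow cells were present too. The summed level of 9 neutrophil and promyelocyte markers was 10230 to 16489.5 CPM (counts scaled to equal depth by TMM), against 607 to 1849 CPM for the T cell markers. Transcripts of the targeted genes were still counted: Il1rl1 had 1130 to 1229 counts in the libraries labelled ST2-KO, 1967 to 2290 in tumor WT and 1053 to 1305 in no tumor WT, and Tbx21 had 195 to 258 in the libraries labelled Tbet-KO, 560 to 773 in tumor WT and 168 to 289 in no tumor WT. Against tumor WT, Il1rl1 was lower in ST2-KO (log2 fold change -0.52 ± 0.048 (SE), adjusted p = 5.8e-16, edgeR) and Tbx21 lower in Tbet-KO (-1.40 ± 0.12, adjusted p = 5.2e-18). Tbx21 was also lower in ST2-KO than in tumor WT (-0.95 ± 0.12, adjusted p = 3.3e-11). Against no tumor WT, Il1rl1 was higher in ST2-KO (0.23 ± 0.051, adjusted p = 2.0e-04), and Tbx21 in Tbet-KO was not called (-0.08 ± 0.13, adjusted p = 0.59). These levels therefore do not settle the genotypes. A count per gene cannot show a partial deletion, so ST2-KO and Tbet-KO stand here for the libraries labelled so. The column headers of the 3 ST2-KO libraries repeat the sequencer sample numbers of the 3 tumor WT libraries, so these libraries were told apart by the genotype in the header alone, and every comparison of ST2-KO or tumor WT rests on it. In bulk libraries such as these, fewer cells of a dividing type and less RNA of these genes per cell cannot be told apart.

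The level of the cell cycle genes followed 1 order in most cases: highest in no tumor WT, then in the libraries labelled ST2-KO, then in tumor WT, and lowest in those labelled Tbet-KO. The group means took that order in 26 of 42 genes (9 of 19 in S phase, 17 of 23 in G2 and M), against 17.1% of all genes tested. It is the commonest order of these same genes, so its shares over all genes describe it and cannot test it. Each of the 3 steps down passed an adjusted p of 0.05 (edgeR quasi-likelihood test, Benjamini-Hochberg over all genes) in 13 genes, 4 in S phase (Mcm7, Pcna, Rrm2 and Uhrf1) and 9 in G2 and M (Top2a, Ccna2, Cdk1, Bub1b, Birc5, Cenpf, Kif11, Tpx2 and Foxm1), against 4.78% of all genes. No tumor WT had the highest mean in 41 of 42 genes, the exception being Tyms, against 35.1% of all genes. The libraries labelled Tbet-KO had the lowest in 30 (9 of 19 in S phase, 21 of 23 in G2 and M), against 30.6%. Within a group, the 3 libraries lay close together, with a median coefficient of variation of 3.42% over genes and groups and a highest of 22.7%.

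**Figure D1:**
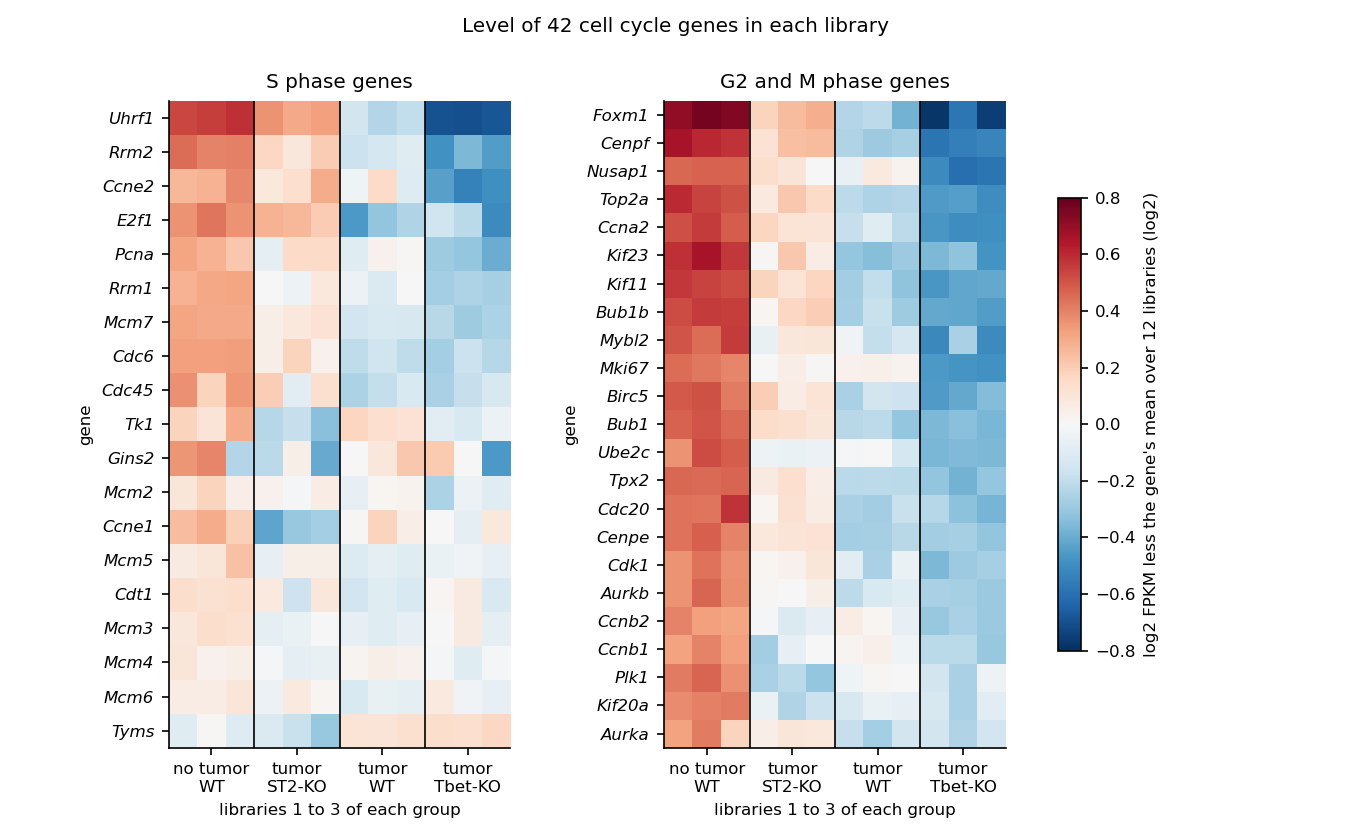
Each row is a gene and each column a library, and colour gives the log2 FPKM less the mean of that gene over 12 libraries (red higher, blue lower). Genes are sorted by the difference between no tumor WT and tumor Tbet-KO. No tumor WT is the highest group in 41 of 42 genes (35.1% of all genes tested). Tumor Tbet-KO is the lowest in 30 (30.6% of all genes), 9 of 19 in S phase and 21 of 23 in G2 and M.

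Per length, in FPKM (fragments scaled by transcript length and depth), the level in no tumor WT was highest for Mki67 (322), Top2a (278) and Ube2c (210.3) and lowest for Gins2 (11.8). Ki-67, the product of Mki67, coats mitotic chromosomes and is the usual protein mark of dividing cells. Its level was 3294, 3246 and 3171 CPM in no tumor WT, 2478, 2497 and 2477 in tumor WT, 2417, 2519 and 2440 in the libraries labelled ST2-KO and 1759, 1746 and 1730 in those labelled Tbet-KO. Tumor WT and ST2-KO libraries overlapped, and the other groups stood clear of each other. The log2 fold change was -0.38 ± 0.019 (SE) in tumor WT against no tumor WT, -0.01 ± 0.019 in ST2-KO against tumor WT (adjusted p = 0.56) and -0.51 ± 0.019 in Tbet-KO against tumor WT. Top2a, which encodes the topoisomerase that untangles sister chromatids, had 1494, 1439 and 1409 CPM in no tumor WT, 1047, 1155 and 1103 in ST2-KO, 856, 836 and 845 in tumor WT and 723, 729.9 and 703 in Tbet-KO. In contrast to Mki67, no 2 groups of Top2a overlapped, and the ST2-KO libraries were 0.38 ± 0.025 log2 units above tumor WT.

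Among the transcription factors, Foxm1, which switches on G2 and M genes, was at 242, 251 and 247 CPM in no tumor WT, 168, 177 and 181 in ST2-KO, 126, 128 and 114 in tumor WT and 86.5, 99.2 and 88.1 in Tbet-KO. The 4 groups did not overlap. Its log2 fold changes were -1.01 ± 0.045 (adjusted p = 2.6e-34) for tumor WT against no tumor WT and -0.94 ± 0.048 for Tbet-KO against ST2-KO. Of the 42 genes, Foxm1 had the largest fall in tumor WT, to a level 50.2% lower. Mybl2, which encodes B-MYB, fell by 0.62 ± 0.085 in tumor WT and by 0.31 ± 0.089 in Tbet-KO against tumor WT, and was 0.16 ± 0.088 in ST2-KO against tumor WT (adjusted p = 0.12). E2f1, the E2F factor of S phase entry, had 59.7, 62.7 and 59.8 CPM in no tumor WT, 56.9, 56.3 and 53.9 in ST2-KO, 33.9, 37.6 and 39.6 in tumor WT and 41.9, 40.2 and 32.8 in Tbet-KO. The tumor WT and Tbet-KO libraries overlapped (adjusted p = 0.64), and ST2-KO stood 0.59 ± 0.081 above tumor WT (adjusted p = 1.5e-09) and -0.13 ± 0.078 from no tumor WT (adjusted p = 0.23).

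Uhrf1, which brings the maintenance methylase Dnmt1 to newly copied DNA, was the S phase gene with the largest range. Its level was 542, 551 and 562 CPM in no tumor WT, 483, 465 and 472 in ST2-KO, 339, 320.0 and 327 in tumor WT and 232, 230.4 and 233 in Tbet-KO. No groups overlapped, and each of the 6 comparisons passed. The smallest difference was that of ST2-KO against no tumor WT (-0.22 ± 0.030), the largest that of Tbet-KO against no tumor WT (-1.25 ± 0.031, adjusted p = 6.1e-53), and ST2-KO was 0.53 ± 0.030 above tumor WT.

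The replicative helicase is made of the products of Mcm2 to Mcm7, and its subunits other than Mcm7 differed by at most 0.23 log2 units in any comparison. Mcm2 was at 185, 196 and 180.2 CPM in no tumor WT, 179, 173 and 182 in ST2-KO, 166, 176 and 178 in tumor WT and 146, 169 and 163 in Tbet-KO. The groups lay close to each other, and the log2 fold changes were -0.11 ± 0.043 in tumor WT against no tumor WT (adjusted p = 0.020) and -0.12 ± 0.044 in Tbet-KO against tumor WT (adjusted p = 0.022). Mcm6, whose promoter with 3 E2F sites is shown above, had 268.7 to 313 CPM over all 12 libraries, and Mcm4 219 to 250.1 CPM. Mcm7 differed from the other subunits, at 267, 265 and 265 CPM in no tumor WT, 222, 228 and 233 in ST2-KO, 193, 198 and 197 in tumor WT and 184, 176 and 181 in Tbet-KO, with no overlap and a log2 fold change of -0.44 ± 0.036 in tumor WT. The median log2 fold change of the 6 subunits was -0.17 in tumor WT against no tumor WT, 0.071 in ST2-KO against tumor WT and -0.016 in Tbet-KO against tumor WT. Of the genes that load and start the helicase, Cdc6 fell in tumor WT (-0.52 ± 0.055), as did Cdt1 (-0.26 ± 0.070) and Cdc45 (-0.49 ± 0.069), and Cdc6 (0.28 ± 0.056) and Cdc45 (0.28 ± 0.071) were higher in ST2-KO than in tumor WT. Gins2, a part of the active helicase and the lowest of the 42 genes, had 13.5, 13.8 and 8.94 CPM in no tumor WT, 10.6, 11.2 and 12.3 in tumor WT, 9.06, 10.9 and 7.93 in ST2-KO and 12.2, 10.6 and 7.64 in Tbet-KO. All its groups overlapped, and it was the only gene of the 42 that passed in none of the 6 comparisons.

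Pcna, the sliding clamp that holds the polymerase on DNA, had 214, 209 and 200.3 CPM in no tumor WT, 165, 192 and 192 in ST2-KO, 161, 177 and 173 in tumor WT and 141, 139 and 131 in Tbet-KO. ST2-KO and tumor WT overlapped (0.10 ± 0.045, adjusted p = 0.049), and Tbet-KO stood below both (-0.31 ± 0.046 against tumor WT).

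Genes that supply deoxynucleotides went separate ways. Rrm1 and Rrm2, the subunits of ribonucleotide reductase, fell in tumor WT against no tumor WT by 0.35 ± 0.033 and 0.55 ± 0.034, and in Tbet-KO against tumor WT by 0.21 ± 0.034 and 0.29 ± 0.035. Tyms, thymidylate synthase, had 55.2, 59.5 and 55.2 CPM in no tumor WT, 63.9, 63.9 and 65.01 in tumor WT, 54.9, 52.4 and 48.1 in ST2-KO and 65.3, 65.3 and 66.6 in Tbet-KO. It was the 1 gene of 42 that rose in tumor WT against no tumor WT (0.18 ± 0.067, adjusted p = 0.017), and it fell in ST2-KO against tumor WT (-0.31 ± 0.069). Tk1, thymidine kinase of the salvage route, had 54.8, 52.02 and 59.5 CPM in no tumor WT, 54.5, 53.1 and 52.5 in tumor WT, 45.7, 44.4 and 46.9 in Tbet-KO and 41.3, 42.6 and 38.5 in ST2-KO. Its lowest group was ST2-KO, with -0.39 ± 0.077 against tumor WT, whereas no tumor WT and tumor WT overlapped.

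The cyclins that partner Cdk2 at the start of S phase also parted. Ccne1 had 37.002, 38.3 and 35.6 CPM in no tumor WT, 31.4, 35.4 and 32.4 in tumor WT, 31.4, 29.7 and 33.2 in Tbet-KO and 23.4, 25.3 and 25.9 in ST2-KO. Ccne2 had 94.8, 95.5 and 103 CPM in no tumor WT, 83.9, 86.9 and 97.3 in ST2-KO, 77.1, 87.8 and 73.7 in tumor WT and 58.5, 54.2 and 56.2 in Tbet-KO. Cyclin E1 mRNA was lowest in ST2-KO (-0.41 ± 0.095 against tumor WT, adjusted p = 1.9e-04) and cyclin E2 mRNA in Tbet-KO (-0.50 ± 0.064 against tumor WT, adjusted p = 2.4e-10).

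**Figure D2:**
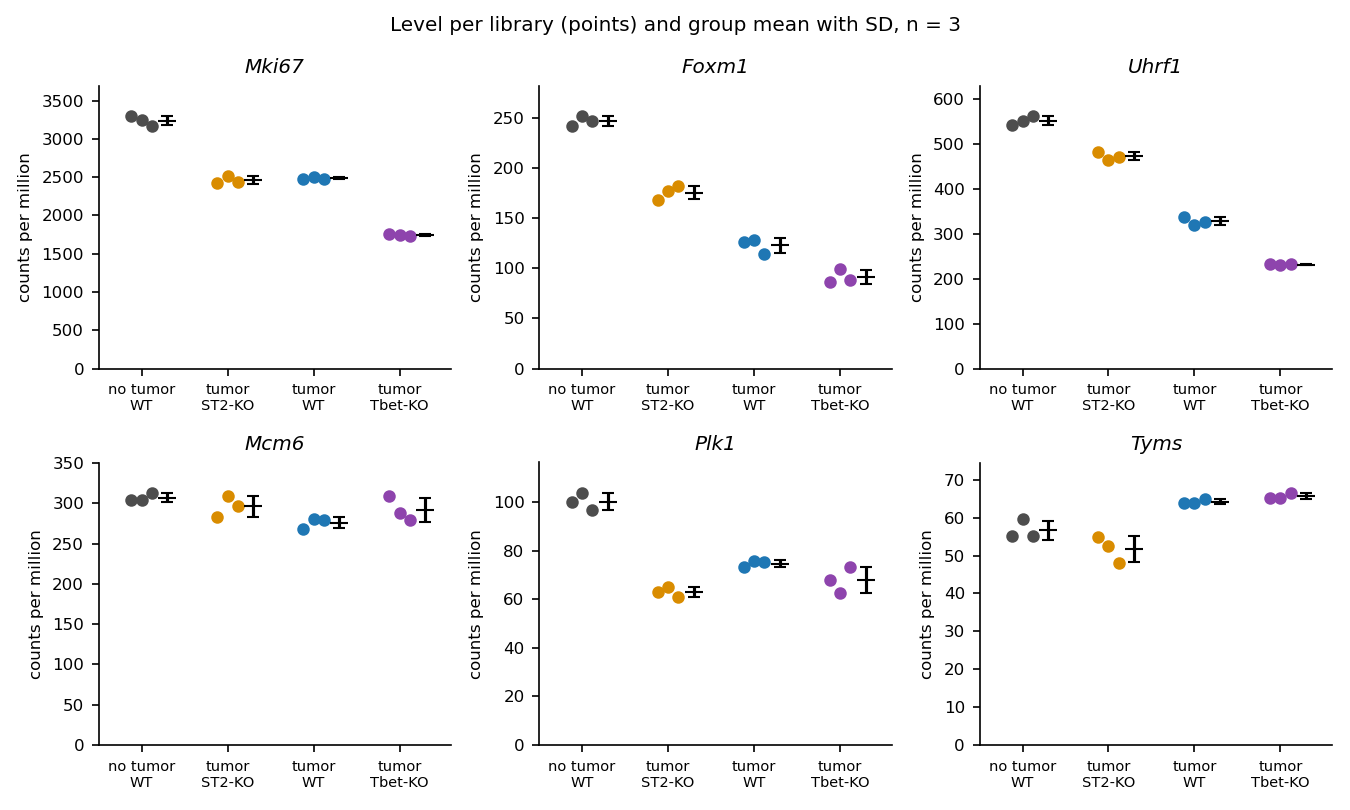
CPM of 6 genes in each library (points), with the mean and SD of each group of 3 (black). Mki67, Foxm1 and Uhrf1 are highest in no tumor WT and lowest in tumor Tbet-KO, Mcm6 stays between 268.7 and 313 CPM, and Plk1 and Tyms are lowest in tumor ST2-KO.

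Cdk1, the kinase that drives mitosis, had 129, 136 and 130.2 CPM in no tumor WT, 102, 104 and 108 in ST2-KO, 95.01, 84.5 and 97.5 in tumor WT and 78.7, 82.5 and 84.1 in Tbet-KO. The libraries of the 4 groups did not overlap, although the steps were small, with 0.18 ± 0.054 for ST2-KO and -0.18 ± 0.054 for Tbet-KO, each against tumor WT. Ccna2, cyclin A2 of S and G2, followed with -0.68 ± 0.032 in tumor WT, 0.29 ± 0.032 in ST2-KO and -0.32 ± 0.033 in Tbet-KO. Ccnb1 had 158, 167 and 159 CPM in no tumor WT, 129, 130.3 and 124 in tumor WT, 105, 121 and 127 in ST2-KO and 109, 109 and 103 in Tbet-KO. For this B cyclin, the tumor WT and ST2-KO libraries overlapped (-0.12 ± 0.050, adjusted p = 0.052), and Ccnb2 was alike in that comparison, at -0.07 ± 0.048 (adjusted p = 0.23).

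Plk1, a kinase of mitotic entry and the spindle, had 100.2, 104 and 96.7 CPM in no tumor WT, 73.3, 75.8 and 75.3 in tumor WT, 67.9, 62.8 and 73.2 in Tbet-KO and 62.95, 64.9 and 60.8 in ST2-KO. It was the 1 G2 and M gene that fell in ST2-KO against tumor WT (-0.25 ± 0.062, adjusted p = 5.4e-04). Aurka and Aurkb, the Aurora kinases of centrosomes and of the centromere, went the other way, with 0.28 ± 0.067 and 0.16 ± 0.055. Birc5, which encodes survivin, the partner of Aurora B, rose by 0.32 ± 0.056 in ST2-KO and fell by 0.21 ± 0.057 in Tbet-KO, both against tumor WT.

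Cenpf, a large kinetochore protein, had 367, 354 and 347 CPM in no tumor WT, 253, 276 and 278 in ST2-KO, 197, 190.5 and 194 in tumor WT and 156, 159.7 and 162 in Tbet-KO. No groups overlapped, and the fold changes were -0.88 ± 0.036, 0.47 ± 0.037 and -0.29 ± 0.038 in tumor WT against no tumor WT, ST2-KO against tumor WT and Tbet-KO against tumor WT. Kif23, a motor of the midzone and of cytokinesis, had 187, 197 and 185 CPM in no tumor WT, 126, 145 and 131 in ST2-KO, 101, 98.6 and 102 in tumor WT and 97.2, 100.005 and 89.6 in Tbet-KO. It fell by 0.92 ± 0.048 in tumor WT and rose by 0.41 ± 0.050 in ST2-KO against tumor WT, but the tumor WT and Tbet-KO libraries overlapped (adjusted p = 0.29). Kif11, the motor that separates spindle poles, and Cenpe, which carries chromosomes to the metaphase plate, fell by 0.80 ± 0.031 and 0.69 ± 0.036 in tumor WT and rose by 0.42 ± 0.031 and 0.36 ± 0.036 in ST2-KO. Kif20a, a motor of cytokinesis, fell in tumor WT (-0.48 ± 0.057) with tumor WT, ST2-KO and Tbet-KO overlapping at 71.2 to 82.2 CPM.

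Nusap1, a microtubule bundling protein, had 245, 247 and 247 CPM in no tumor WT, 197, 192 and 178 in ST2-KO, 171, 188 and 182 in tumor WT and 125, 117 and 119 in Tbet-KO. It had the largest fall of the 42 genes in Tbet-KO against tumor WT, at -0.58 ± 0.043 (adjusted p = 6.2e-21), whereas ST2-KO and tumor WT overlapped. Tpx2, which activates Aurora A on the spindle, fell by 0.67 ± 0.035 in tumor WT. The spindle checkpoint genes Bub1 and Bub1b and the anaphase activator Cdc20 fell by 0.72 ± 0.048, 0.79 ± 0.040 and 0.72 ± 0.066 in tumor WT and rose by 0.37 ± 0.049, 0.38 ± 0.041 and 0.31 ± 0.068 in ST2-KO against tumor WT. Ube2c, the ubiquitin carrier of the anaphase promoting complex, fell in tumor WT (-0.50 ± 0.045) and in Tbet-KO (-0.31 ± 0.046) and stood at 0.00 ± 0.046 in ST2-KO against tumor WT (adjusted p = 0.95).

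In tumor WT against no tumor WT, 37 of the 42 genes fell and 1 (Tyms) rose, where 29.4% of all 13782 genes fell and 29.0% rose. All 23 G2 and M genes fell, with a median log2 fold change of -0.66 and none rising at an unadjusted p under 0.05 by edgeR, nor at an adjusted one by DESeq2 or limma. Of the 19 S phase genes 14 fell, with a median of -0.26, and Mcm4, Tk1, Gins2 and Ccne1 were not called. The median over all genes tested was 0.0037. Without any scaling between libraries, 35 of the 42 genes fell and 1 rose, but the split of all calls moved from 3998 higher and 4054 lower to 4819 and 3267. The calls of Mcm2 and Tyms were lost when single libraries were left out (Mcm2 without tumor WT 1 or no tumor WT 2, Tyms without no tumor WT 1, no tumor WT 3 or tumor WT 3), with adjusted p from 0.0557 to 0.164.

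With leukemia in both groups, the libraries labelled ST2-KO had 25 genes higher and 5 lower than tumor WT (background 23.1% higher, 22.8% lower). The higher genes were 15 of G2 and M and 10 of S phase, and of the S phase genes DESeq2 called 8 and limma 6. This comparison shares the tumor WT libraries with the comparison before it. The 5 lower genes were Mcm4, Tyms, Tk1, Ccne1 and Plk1. The median log2 fold change was 0.29 in G2 and M and 0.10 in S phase, with an all-gene median of -0.0024. Without scaling the members' split was 19 higher and 8 lower, the added falls being Mki67, Ccnb1 and Ccnb2, and that of all genes moved from 3190 higher and 3148 lower to 2481 and 3860. The calls of Mcm4, Mcm5, Mcm6, Pcna, Ccne2, Cdk1 and Aurkb were lost in turn when 1 of the tumor WT libraries or ST2-KO 2 or 3 was left out (adjusted p from 0.0656 to 0.343).

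In the libraries labelled Tbet-KO, 23 genes were lower than in tumor WT and none was higher by edgeR (background 20.6% lower, 18.1% higher). At an unadjusted p under 0.05 2 were higher, Mcm3 and Mcm6, and DESeq2 and limma called none. These 2 passed in a fit of only the 2 groups and when Tbet-KO 3 was left out. G2 and M genes gave 15 of the 23 falls (median -0.18) and S phase genes 8 (median -0.075), and the all-gene median was 0.0053. Not called in G2 and M were Cdc20, Bub1, Plk1, Aurka, Aurkb, Cenpe, Kif20a and Kif23. The calls of Mcm2, Mcm7, Tk1, Cdk1 and Tpx2 were lost when Tbet-KO 1 or 2 or any of the tumor WT libraries was left out (adjusted p from 0.0507 to 0.344).

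Tbet-KO against ST2-KO, which share the leukemia but not the sort gate, had 31 genes lower and 2 higher, Tyms and Ccne1 (background 27.4% lower, 26.4% higher). The medians were -0.47 in G2 and M, with 21 of 23 lower, and -0.16 in S phase, with 10 of 19 lower. Uhrf1 (-1.03 ± 0.031) was the 1 gene that fell by more than 1 log2 unit. The calls of Mcm2 (without Tbet-KO 1) and Ccnb1 (without ST2-KO 2, ST2-KO 3 or Tbet-KO 3) did not hold, with adjusted p from 0.0678 to 0.235.

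Set against no tumor WT, 35 genes were lower in ST2-KO and none was higher, at an unadjusted p under 0.05 or by DESeq2 or limma either (background 17.0% lower, 15.0% higher), and 38 were lower and 1, Tyms, higher in Tbet-KO (background 32.3% lower, 31.9% higher). All 23 G2 and M genes fell in both, with medians of -0.40 and -0.83, and 12 and 15 of the 19 S phase genes, with medians of -0.18 and -0.28. Foxm1 (-1.43 ± 0.046), Uhrf1 (-1.25 ± 0.031) and Cenpf (-1.16 ± 0.037) fell the most in Tbet-KO. Mcm4, Mcm5, Cdc45 and Aurka in ST2-KO and Mcm3, Mcm4 and Ccne1 in Tbet-KO lost their calls without single libraries (adjusted p from 0.0584 to 0.271 and from 0.0711 to 0.137).

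**Figure D3:**
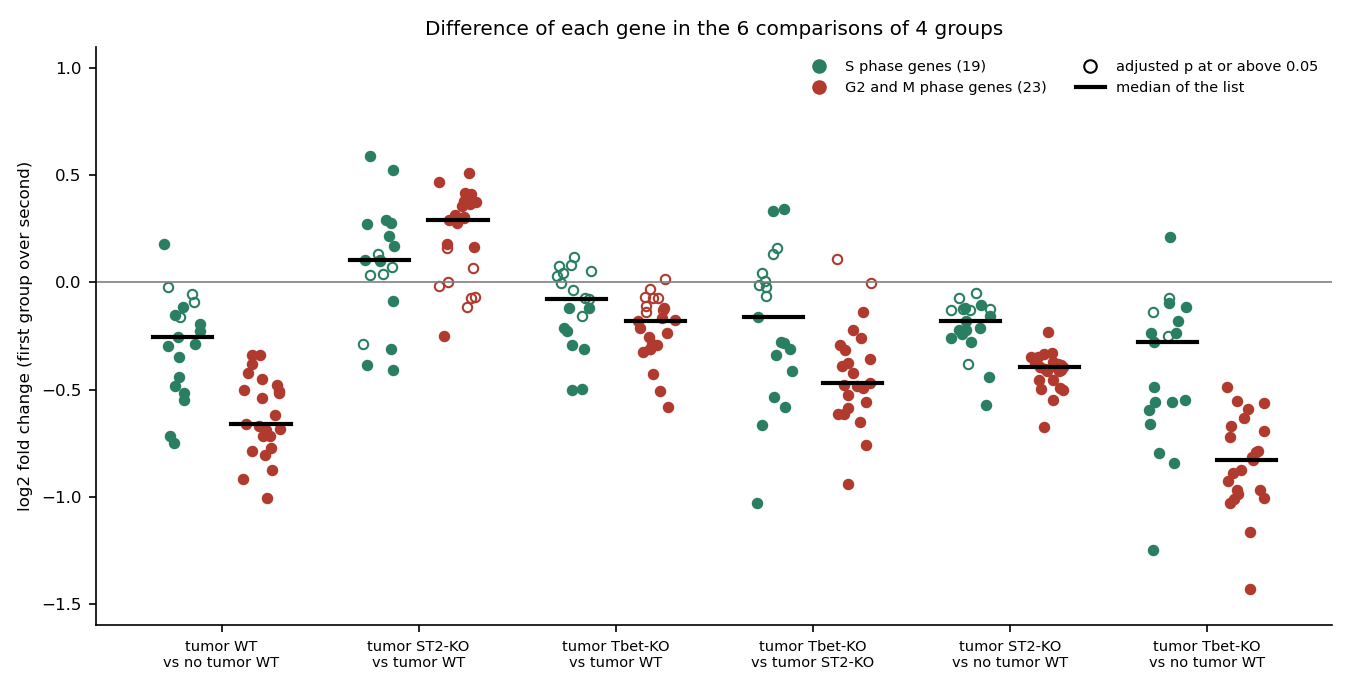
Log2 fold change of each gene in the 6 comparisons on the TMM scale, S phase genes in green and G2 and M genes in red, filled where the adjusted p is under 0.05, with the median of each list as a black line. The G2 and M median lies farther from 0 than the S phase median in all 6, from -0.83 against -0.28 (tumor Tbet-KO against no tumor WT) to -0.18 against -0.075 (tumor Tbet-KO against tumor WT).

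S phase genes were then set against G2 and M genes within each library, as the mean log2 FPKM of the 23 less that of the 19. The difference was 0.394, 0.418 and 0.401 in no tumor WT, 0.190, 0.212 and 0.199 in ST2-KO, 0.0975, 0.0563 and 0.0409 in tumor WT and -0.0534, -0.0418 and -0.0038 in Tbet-KO. No 2 groups overlapped, and their means were 0.404 ± 0.013, 0.201 ± 0.011, 0.065 ± 0.029 and -0.033 ± 0.026 (SD, n = 3). With the median of each list in place of the mean, the difference moved from -0.34 to -0.60 between tumor WT and no tumor WT and from -0.098 to -0.025 between Tbet-KO and tumor WT. No test was made of this score over genes. The S phase mean itself was 5.65 ± 0.011 in no tumor WT and 5.24 ± 0.030 in Tbet-KO, and the G2 and M mean 6.05 ± 0.019 and 5.20 ± 0.0060.

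**Figure D4:**
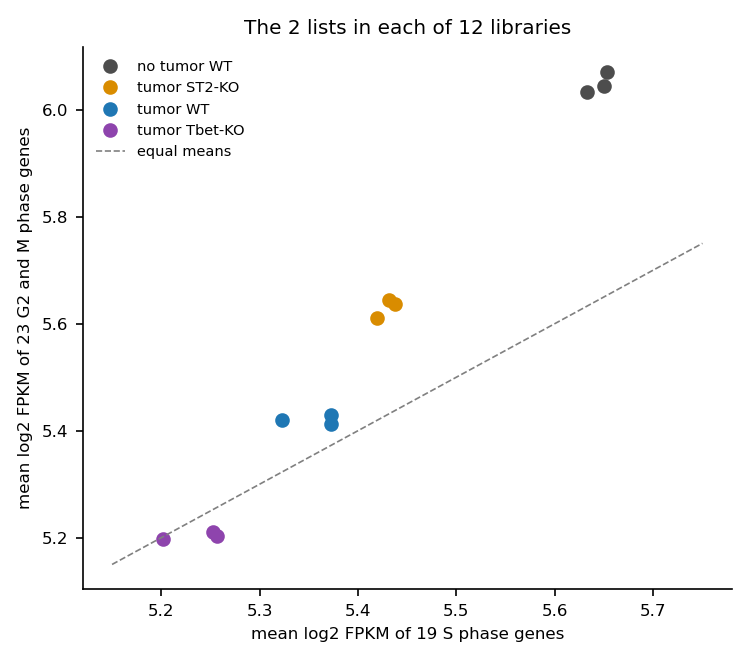
Each point is a library, with the mean log2 FPKM of 19 S phase genes on the horizontal axis and of 23 G2 and M genes on the vertical axis, and the dashed line marks equal means. No tumor WT libraries lie 0.394 to 0.418 above the line, and tumor Tbet-KO libraries below it, at -0.0534 to -0.0038.

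Besides the 42, 61 other cell cycle genes were read from lists written by function. In tumor WT against no tumor WT 44 of them fell and 9 rose, in ST2-KO against tumor WT 4 fell and 32 rose, and in Tbet-KO against tumor WT 22 fell and 5 rose. Over all genes tested, 29.4% fell and 29.0% rose in the first of these comparisons, 22.8% and 23.1% in the second and 20.6% and 18.1% in the third, and the counts of the lists below stand beside these shares. Of the 10 genes of the RB family and E2F factors, 7 fell and 2 rose in tumor WT, 1 fell and 5 rose in ST2-KO, and 4 fell in Tbet-KO, the last 2 against tumor WT. Condensin genes (Smc2, Smc4, Ncapd2, Ncapg and Ncaph), which compact mitotic chromosomes, fell in 5 of 5 cases in tumor WT and in Tbet-KO against tumor WT, and 3 of 5 rose in ST2-KO against tumor WT. Of 18 origin recognition and replisome genes, 12 fell in tumor WT and 10 rose in ST2-KO, but only 1 fell and 1 rose in Tbet-KO against tumor WT. Of 15 further mitotic genes, 14, 10 and 8 were called in the same 3 comparisons, all lower, higher and lower in turn. Beside the kinase inhibitors and cyclins given next, the largest changes in a comparison were those of E2f2, Cdc25b and Pold1.

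E2f2, an E2F factor that is also high in erythroid and lymphoid precursors, had 632, 619.8 and 666 CPM in no tumor WT, 451, 436 and 466 in ST2-KO, 279, 267 and 264 in tumor WT and 151, 156 and 156 in Tbet-KO. Cdc25b, a phosphatase that activates Cdk1, had 383, 382 and 401 CPM in no tumor WT, 306, 306 and 289 in ST2-KO, 174, 166 and 168 in tumor WT and 93.98, 100.2 and 98.4 in Tbet-KO. Neither gene had overlapping groups. Their log2 fold changes in Tbet-KO against no tumor WT were -2.05 ± 0.033 and -1.99 ± 0.039, beyond every one of the 42 genes. Pold1, the catalytic subunit of polymerase delta, was -1.04 ± 0.056 in tumor WT and 0.72 ± 0.057 in ST2-KO.

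Inhibitors of cyclin-dependent kinases and the G1 machinery did not move as 1 group, with 4 of 7 inhibitors and 3 of 6 G1 genes higher in tumor WT than without tumor and the others lower, where 29.0% of all genes were higher and 29.4% lower. Cdkn1a, the p53 target p21, had 21.3, 18.5 and 20.6 CPM in no tumor WT, 27.02, 22.996 and 28.7 in ST2-KO, 30.7, 29.9 and 31.6 in tumor WT and 34.99, 41.7 and 39.2 in Tbet-KO, the reverse of the order of most of the 42 genes. Cdkn1c, an inhibitor known from quiescent progenitors, had 0.947, 0.727 and 1.71 CPM in no tumor WT, 7.08, 11.7 and 10.9 in ST2-KO, 12.7, 10.5 and 13.2 in tumor WT and 19.7, 17.8 and 20.4 in Tbet-KO, with 3.43 ± 0.23 in tumor WT against no tumor WT. Cdkn1b and Cdkn2d went with the cycle genes, at -0.53 ± 0.043 and -0.54 ± 0.096 in tumor WT. Cdkn2c was lowest in tumor WT, with -0.16 ± 0.059 against no tumor WT and 0.20 ± 0.059 in ST2-KO against tumor WT. Cdkn2a had 0.583, 1.39 and 0.263 CPM in no tumor WT and 4.12, 3.07 and 3.04 in Tbet-KO, and Cdkn2b 0.437, 0.485 and 0.263 and 1.94, 1.77 and 1.63, so both were low in every group, and both rose in Tbet-KO against no tumor WT.

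Among G1 cyclins and kinases, Ccnd3 (453, 459 and 461 CPM in no tumor WT, 398, 401 and 410.0 in ST2-KO, 348, 328 and 335 in tumor WT, 252, 246 and 252 in Tbet-KO) followed the same order as the 42, whereas Ccnd2, the other main D cyclin of lymphocytes, stood at 379, 353 and 370.2 CPM in no tumor WT, 408, 410.5 and 404 in ST2-KO, 619, 623 and 611 in tumor WT and 577, 547 and 560.1 in Tbet-KO. Ccnd2 was therefore highest in tumor WT (0.75 ± 0.029 against no tumor WT, -0.60 ± 0.029 for ST2-KO against tumor WT), and so was Ccnd1, at 23.03, 26.4 and 23.1 CPM against at most 15.8 CPM in the other 3 groups. Cdk6, a kinase partner of the D cyclins, was highest in Tbet-KO, at 360.4, 381 and 370.4 CPM, with 0.79 ± 0.035 against tumor WT. Cdk4 and Cdk2 differed by at most 0.38 log2 units in any comparison.

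Both lists were also split by promoter element. In tumor WT against no tumor WT, the 15 G2 and M genes with a CHR had a median log2 fold change of -0.66 and the 3 without (Bub1, Nusap1 and Mybl2) -0.62. The 6 S phase genes with a CHR had -0.19 and the 10 without -0.32. For E2F sites in S phase genes the medians were -0.24 with (6 genes) and -0.32 without (10 genes). In Tbet-KO against tumor WT, the same 6 S phase genes with an E2F site had a median of 0.062 and the 10 without -0.17, and G2 and M genes with and without a CHR had -0.18 and -0.31. No test was made of these splits. E2f1 and Mybl2 were counted as without an element from windows inside the gene, so their place in the splits is uncertain. Plk1, with CHR matches at 89 and 29 bases before its start, fell in ST2-KO against tumor WT, whereas Cdk1, with matches at 71 and 15, rose.

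The summed B lineage markers took the order of most of these genes, as did the sum of plasmacytoid dendritic cell markers given below. The other marker lists took several other orders. Summed over 9 B lineage markers (Cd79a, Pax5, Rag1, Vpreb1 and others), the level was 3148 to 3223 CPM in no tumor WT, 2159 to 2229 in ST2-KO, 918 to 921 in tumor WT and 73.5 to 79.3 in Tbet-KO, the same order of groups as that of 26 of the 42 genes. All 9 fell in tumor WT against no tumor WT and in Tbet-KO against tumor WT, and 8 of 9 rose in ST2-KO against tumor WT. Over all genes tested, 29.4% and 20.6% fell in the first 2 of these comparisons and 23.1% rose in the last. None was at 0 in any group, with the lowest, Vpreb1, at 4 to 9 counts in Tbet-KO. The sum was 41.5-fold higher in no tumor WT than in Tbet-KO, against 1.39-fold for the summed S phase genes and 1.87-fold for the summed G2 and M genes. The 12 T cell markers went the other way, at 607 to 635 CPM in no tumor WT, 794 to 836 in ST2-KO, 1568 to 1608 in tumor WT and 1796 to 1849 in Tbet-KO. The part of B lineage cells, or of any other cell type, in the levels of the 42 genes was not tested.

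The 5 plasmacytoid dendritic cell markers had the same order in their summed means, at 439 to 465 CPM in no tumor WT, 397 to 411 in ST2-KO, 338 to 346 in tumor WT and 327 to 355 in Tbet-KO, with the last pair overlapping. Their members did not move as 1, since in tumor WT against no tumor WT 3 fell (Siglech, Tcf4 and Irf8), Ccr9 rose and Bst2 was not called, and in ST2-KO against tumor WT Tcf4 rose, Ccr9 fell and 3 were not called. The 8 progenitor and MLL fusion target genes summed to 1113 to 1135 CPM in no tumor WT, 1047 to 1100 in ST2-KO, 754 to 778 in Tbet-KO and 648 to 677 in tumor WT, none at 0, but 1 abundant gene, Myb, held most of the sum. Myb, which encodes a transcription factor of blood progenitors, had mean levels of 1055 CPM in no tumor WT, 894 in ST2-KO, 462 in tumor WT and 417 in Tbet-KO. The other 7 (Hoxa9, Hoxa7, Hoxa10, Meis1, Kit, Cd34 and Flt3) rose in tumor WT against no tumor WT and rose again in Tbet-KO against tumor WT, and the median over the 8 was 2.14 in the former comparison.

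Markers of 3 other kinds of cells ran in the opposite order of summed levels. The 4 NK cell markers summed to 75.0 to 81.8 CPM in no tumor WT, 109.8 to 114 in ST2-KO, 147 to 154 in tumor WT and 198 to 208 in Tbet-KO, and the 7 monocyte and macrophage markers to 562 to 578, 702 to 724, 1203 to 1272 and 1309 to 1376 CPM in the same order of groups. The members did not all take the last step. In Tbet-KO against tumor WT, 1 monocyte and macrophage marker was higher, 3 were lower and 3 were not called (median log2 fold change -0.093). Of the NK cell markers, 2 were higher, 1 was lower and 1 was not called. The 4 plasma cell markers (Jchain, Sdc1, Xbp1 and Prdm1) summed to 174 to 189, 202 to 225, 243 to 259 and 509 to 521 CPM, with Jchain at a mean of 275 CPM in Tbet-KO and 40.8 in tumor WT, whereas Sdc1 fell in Tbet-KO against tumor WT. T cells themselves express Xbp1, Prdm1 and Nkg7. The 6 Treg markers summed to 822 to 834 CPM in no tumor WT, 1239 to 1292 in ST2-KO, 1787 to 1832 in tumor WT and 1521 to 1523 in Tbet-KO. The 6 erythroid markers found summed to 442 to 467 CPM in tumor WT, 355 to 366 in no tumor WT, 205 to 210.1 in ST2-KO and 83.1 to 92.2 in Tbet-KO, with none at 0. The 9 neutrophil and promyelocyte markers had their highest sum in tumor WT (16197 to 16489.5 CPM) and their lowest in ST2-KO (10230 to 10812), none at 0. Their members split. In ST2-KO against no tumor WT, 4 were higher, 3 of them by more than 1 log2 unit, 4 were lower and 1 was not called. In Tbet-KO against tumor WT, 4 were higher, 4 were lower and 1 was not called.

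**Figure D5:**
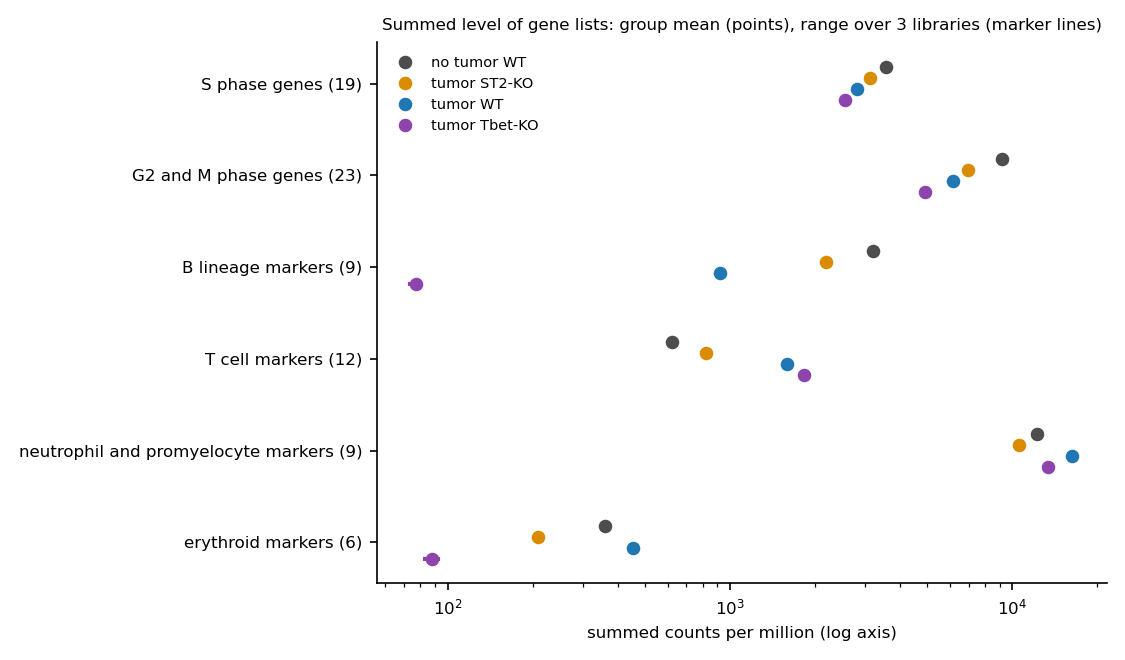
Summed CPM (log axis) of the 2 cell cycle lists and of 4 marker lists, with the group mean as a point and, for the markers, the range over 3 libraries as a line. B lineage markers span 41.5-fold and G2 and M genes 1.87-fold between no tumor WT and tumor Tbet-KO, in the same order of groups, and T cell markers run in the opposite order.

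Scaling the libraries to the 12 T cell markers in place of TMM moved the all-gene median by -1.36 in tumor WT against no tumor WT, 0.95 in ST2-KO against tumor WT, -0.20 in Tbet-KO against tumor WT, -1.15 in Tbet-KO against ST2-KO, -0.41 in ST2-KO against no tumor WT and -1.56 in Tbet-KO against no tumor WT. Before that shift is taken off, 42 of 42 genes were lower, 42 higher, 39 lower, 42 lower, 42 lower and 42 lower, in that order of comparisons, so that Tyms no longer rose in tumor WT and Mcm4, Tyms, Tk1, Ccne1 and Plk1 no longer fell in ST2-KO. Of all 13782 genes tested, 11877, 11619, 5683, 11981, 8811 and 12129 were called in these same directions, so the counts are not particular to the cell cycle genes. Relative to the all-gene median on that scale, the medians of the G2 and M genes were -0.67, 0.30, -0.19, -0.47, -0.38 and -0.83, and those of the S phase genes -0.26, 0.11, -0.081, -0.16, -0.17 and -0.28.

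Technical values also moved with the groups. The 45S ribosomal RNA gene Rn45s took 7.07% to 7.44% of counts in ST2-KO and 3.53% to 5.20% in the other 3 groups. Within the G2 and M list, Spearman's correlation of length with the log2 fold change over 23 genes of the same libraries was -0.48 in tumor WT against no tumor WT, 0.55 in ST2-KO against tumor WT -0.59 in Tbet-KO against ST2-KO and -0.51 in Tbet-KO against no tumor WT, but -0.058 in Tbet-KO against tumor WT and 0.15 in ST2-KO against no tumor WT. Over all 13782 genes it lay between -0.088 and 0.081, and over the 19 S phase genes between -0.20 and 0.34. Cenpf (11122 bases) and Mki67 (10075 bases) were the longest of the list and Ube2c (931 bases) the shortest. The part of length or of ribosomal RNA in these results was not tested.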

How the data were processed

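RNA-seq was analysed for 12 libraries of sorted bone marrow cells, 3 in each of 4 groups taken from the sample labels. The authors removed ribosomal RNA, sequenced paired reads, checked them with FastQC, aligned them with STAR to the mm10 genome and counted reads per gene with featureCounts. The deposited tables hold raw counts per gene and log2 FPKM values that the authors computed from them. Whether counting used strand is not given in the sources used here, so overlapping and antisense genes cannot be told apart.

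Counts were filtered with filterByExpr over the 4 groups (13782 of 14259 genes kept), scaled by TMM and fitted in 1 quasi-likelihood model over all 12 libraries with edgeR 4.0.16 (R 4.3.3), which left 8 residual degrees of freedom and a biological coefficient of variation of 5.53%. The 6 pairs of groups were tested, p-values were adjusted by Benjamini-Hochberg over all genes tested, with 0.05 as the threshold of a call. Of these pairs, 4 are those of the study's methods, whose further threshold of 1 log2 unit was not used for calls. CPM values (depth-scaled counts) are on the TMM scale, and SE is the standard error of the fitted log2 fold change. List means were taken from the deposited log2 FPKM. The code was tested on simulated data with known changes. Over the 6 comparisons it recovered 23.9% to 29.9% of changes of 0.25 log2 units and 74.2% to 84.6% of changes of 1 unit. Few genes were changed in the simulation. In tumor WT against no tumor WT they were 67, 66 and 65 of 13573, at 0.25, 0.5 and 1 unit. In the data, 29.4% of genes were lower in that comparison and 29.0% higher, so the same adjusted p allowed larger unadjusted p-values. The rates therefore do not give the chance of calling a given cell cycle gene here. A gene not called may still differ, above all by a small amount. Replicate libraries differed by more than sampling noise (chi-square per gene 2.27 to 4.98), so none was counted as a copy. Depth was 13272943 to 18042521 counts.

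Alternatives were edgeR's RLE size factors, no scaling, scaling to 12 T cell markers, no filter or a stricter one, only the 2 groups compared, a replicate block, each library left out in turn, DESeq2 1.42.0 and limma 3.58.1 on log2 FPKM. Values in each library are given for 6 usual marks of cycling cells (Mki67, Top2a, Pcna, Mcm2, Cdk1 and Ccnb1), for the 2 largest called rises and falls of each list in the 4 comparisons of the study, and for genes called in none of these. Some further genes were given values by library after their values were seen (Mcm7, and levels quoted as ranges). Of the other cell cycle genes, kinase inhibitors, G1 genes and the 3 largest changes per comparison are named. The genes and all lists, markers included, were chosen with earlier results of these data known. In the B lineage list, 1 further marker is not reported here and was left out of the sums.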

Additional observations from a re-analysis of the deposited data

How the results depend on the processing

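No member call turned direction under RLE size factors, no scaling, either filter, only the 2 groups, the replicate block, DESeq2 or limma, but of 198 calls over the 6 comparisons 15 were lost without scaling, 9 with limma, 5 with only the 2 groups, 3 with DESeq2 and 1 each with RLE size factors, either filter and the replicate block. Under T cell scaling, 9 of the 198 calls turned. On that scale members higher were 0 in tumor WT against no tumor WT, 42 in ST2-KO against tumor WT (0 lower), 0 in Tbet-KO against ST2-KO and 0 in Tbet-KO against no tumor WT, and members lower were 39 in Tbet-KO against tumor WT. Calls over all genes became 266 higher and 11877 lower in tumor WT against no tumor WT, 11619 and 88 in ST2-KO against tumor WT, 902 and 5683 in Tbet-KO against tumor WT, 204 and 11981 in Tbet-KO against ST2-KO, 624 and 8811 in ST2-KO against no tumor WT, and 384 and 12129 in Tbet-KO against no tumor WT. Log2 fold changes that turned, called or not, were Tyms -1.18 in tumor WT and -1.35 in Tbet-KO, each against no tumor WT. In ST2-KO against tumor WT they were Mcm4 0.87, Tyms 0.64, Tk1 0.57, Gins2 0.66, Ccne1 0.54, Mki67 0.94, Ccnb1 0.84, Ccnb2 0.88, Plk1 0.70 and Kif20a 0.88. In Tbet-KO against tumor WT they were Mcm3 -0.12, Mcm5 -0.16, Mcm6 -0.12, Tyms -0.17, Cdt1 -0.083, E2f1 -0.15 and Aurka -0.18. In Tbet-KO against ST2-KO they were Mcm3 -1.11, Mcm4 -1.15, Tyms -0.81, Tk1 -0.99, Gins2 -1.02, Ccne1 -0.82 and Plk1 -1.04. The scale itself moves all genes, as its construction requires.

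Without scaling, 8 members were lower in ST2-KO than in tumor WT, as were 3860 of all genes tested. In Tbet-KO against ST2-KO, 5 members were higher, as were 4288 of all genes. In a fit of only the 2 groups, 2 members were higher in Tbet-KO than in tumor WT. Leaving out 1 library gave 0 to 1 members higher in tumor WT against no tumor WT and 0 to 2 in Tbet-KO against tumor WT. Over all genes, 3658 to 3732 and 2062 to 2159 were higher, in that order of comparisons. Taking the median of each list in place of the mean changed the G2 and M less S phase difference from -0.34 to -0.60 in tumor WT against no tumor WT, from 0.14 to 0.21 in ST2-KO against tumor WT, from -0.098 to -0.025 in Tbet-KO against tumor WT, from -0.20 to -0.39 in ST2-KO against no tumor WT and from -0.44 to -0.63 in Tbet-KO against no tumor WT. The cause of these moves was not tested.

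Replicate numbers did not pair the libraries (correlations of deviations -0.020 to 0.021 over 18 same-numbered pairs). With the replicate block, members called higher and lower were 25 and 5 in ST2-KO against tumor WT, where Mcm4 lost its call and Ccnb1 gained one, and the other calls of members were kept. Gins2 had the lowest counts of the 42 genes, 108 to 195 in Tbet-KO, and there the widest spread (coefficient of variation 22.7%), and the part of depth in it was not tested.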
